A study of Mus musculus with 2 samples.

Results

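The genes described here encode secreted ligands of the Wnt, Fgf, Bmp, Nodal and Hedgehog families. They were 46 genes, named by symbol, of 21631 protein-coding genes on chromosomes 1 to 19 and X of the RefSeq table, and every symbol was found there. The families held 19 Wnt genes, 17 Fgf genes, 7 genes of the Bmp and Nodal group and 3 Hedgehog genes. Their positions were set against the loops of V6.5 mouse embryonic stem cells (mESC), a male pluripotent line, mapped by Micro-C, a chromosome contact assay in which micrococcal nuclease cuts the chromatin before nearby ends are joined. The 2 samples form a single group, siControl, which received the transfection control reagent siGLO at 50 nM and was collected 48 hours later. The cells were wild type, no gene was targeted, and no other condition was analysed here. The deposited data are 1 list of 4982 loops for the group, with no value per sample, so no spread between replicates could be measured and no difference below was tested. Read depth is unknown, and no expression was measured, so the cell label was not checked against marker genes.

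A loop is a pair of chromosomal intervals, the anchors, whose contact stood out from the surrounding contact map in the authors' calls. Loops form largely when the cohesin ring extrudes chromatin until it meets bound CTCF, and they can bring a promoter near a distant enhancer or fence a gene off from its neighbours. The ligands are signals that leave the cell and bind receptors on others: Wnt proteins bind Frizzled receptors, Fgf proteins bind tyrosine kinase receptors, Bmp proteins and Nodal bind serine/threonine kinase receptors, and Hedgehog proteins bind Patched. Many of these genes are switched on in small territories of the embryo by enhancers far away. Embryonic stem cells are known to make some of them, among them Fgf4, Nodal and Bmp4. All coordinates are in mm10, whose assembly GRCm38.p6 is that of the gene table.

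Of the 46 ligand genes, 9 had an end of the gene record inside a loop anchor, against a background of 9.04% of all protein-coding genes. That is 19.6% of the ligands (exact 95% interval 9.36 to 33.9%). The 9 were Wnt5a, Wnt7a, Wnt7b, Wnt9a, Fgf8, Fgf15, Fgf18, Shh and Ihh. A further 5 genes, Wnt4, Wnt5b, Wnt9b, Fgf1 and Bmp3, overlapped an anchor in their body but not at an end, which made 14 of 46 overlapping an anchor (30.4%) against 17.7% of all genes. Loops enclosed 20 of 46, with the whole gene record strictly between the anchors (43.5%, 28.9 to 58.9%), against 32.6% of all genes. At an anchor or enclosed were 27 of 46 (58.7%, 43.2 to 73.0%), against 38.5%. Intervals here are Clopper-Pearson intervals that cover counting over genes only, and neighbouring genes can share a loop.

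Ligand genes had a median of 3.5 other protein-coding genes within 100 kb (exact 95% interval 2 to 5). The median over all genes was 4, inside that interval. Weighting all protein-coding genes to the ligands' gene density, in 5 bins, moved the background to 10.2% for an end at an anchor and to 35.0% for enclosure. Both were below the ligands' shares and inside the ligands' intervals. The families did not order alike on the measures. An end at an anchor was found for 4 of 19 Wnt genes (21.1%, 6.05 to 45.6%), 3 of 17 Fgf genes (17.6%, 3.80 to 43.4%) and 2 of 3 Hedgehog genes (66.7%, 9.43 to 99.2%). It was found for none of 7 Bmp and Nodal genes, where the interval of 0 of 7 reaches 41.0%. Enclosed were 5 of 19 Wnt genes (26.3%, 9.15 to 51.2%), 9 of 17 Fgf genes (52.9%, 27.8 to 77.0%), 5 of 7 Bmp and Nodal genes (71.4%, 29.0 to 96.3%) and 1 of 3 Hedgehog genes (33.3%, 0.840 to 90.6%). The intervals of the 4 families overlapped on both measures, and the differences between families were not tested.

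**Figure D1:**
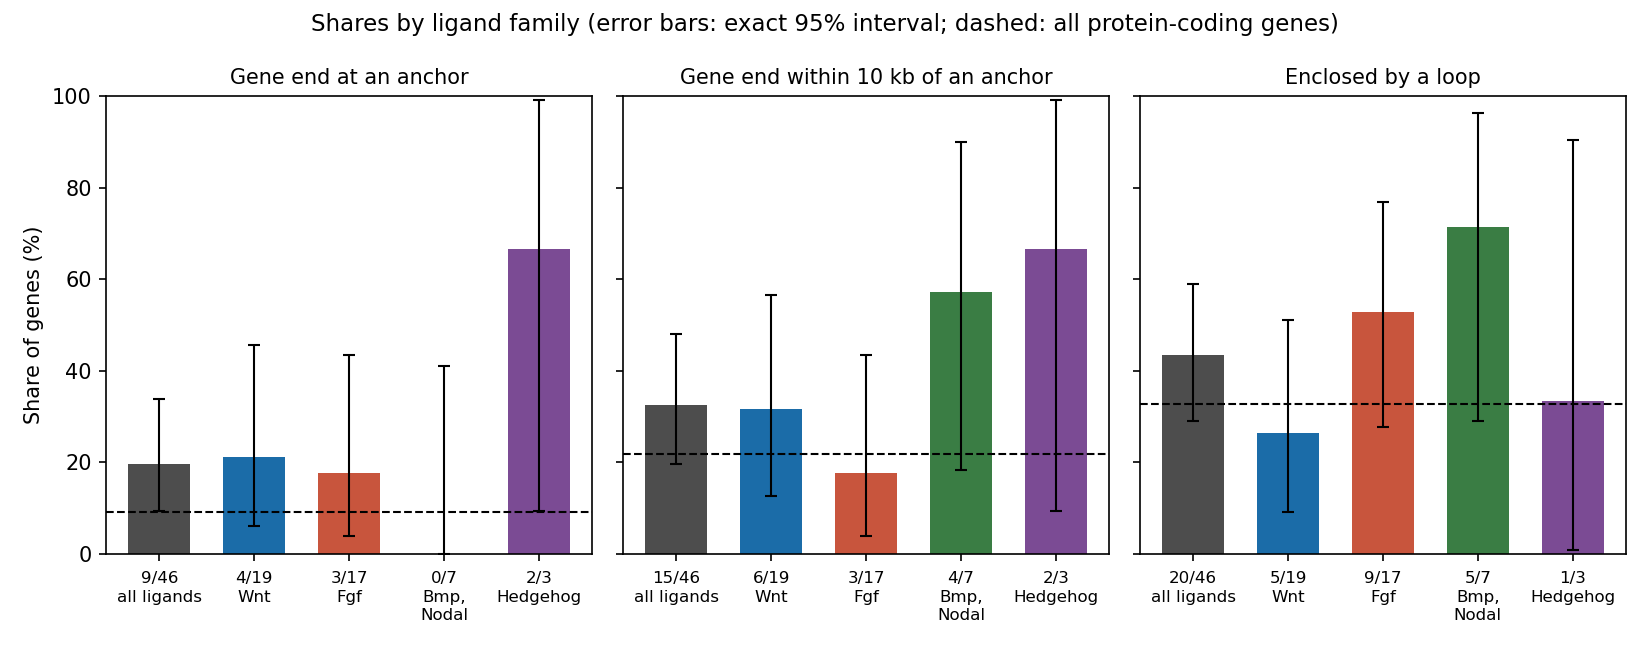
Share of genes (%, vertical axis) with an end at an anchor, with an end within 10 kb of an anchor and enclosed by a loop, for all 46 ligand genes and each family, with counts under the bars. Error bars are exact 95% intervals and dashed lines the shares over all 21631 protein-coding genes; no Bmp or Nodal gene had an end at an anchor, but 4 of 7 had one within 10 kb.

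For 3 of the 9 genes at anchors, Wnt7a, Wnt9a and Fgf18, the promoter table places the transcription start itself in the anchor, which is 9.09% of the 33 ligands with a start in that table (1.92 to 24.3%), against 5.2% of all genes in it. Their upstream sequences are shown because they are the promoter DNA that lies in or next to a loop anchor. Each runs 5′ to 3′ on the gene's strand, from 250 bases before the start, and ends at the base before the RefSeq gene record, with CpG dinucleotides in capitals. The positions are chr6:91411354-91411603 on the minus strand for Wnt7a, chr11:59306680-59306848 on the plus strand for Wnt9a and chr11:33147401-33147650 on the minus strand for Fgf18 (RefSeq, GRCm38.p6).
Wnt7a: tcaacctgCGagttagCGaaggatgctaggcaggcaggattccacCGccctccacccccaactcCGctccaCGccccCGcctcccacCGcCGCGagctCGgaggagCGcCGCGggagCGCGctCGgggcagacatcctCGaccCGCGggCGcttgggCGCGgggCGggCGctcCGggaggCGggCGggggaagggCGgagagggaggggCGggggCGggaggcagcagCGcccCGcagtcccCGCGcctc
Wnt9a: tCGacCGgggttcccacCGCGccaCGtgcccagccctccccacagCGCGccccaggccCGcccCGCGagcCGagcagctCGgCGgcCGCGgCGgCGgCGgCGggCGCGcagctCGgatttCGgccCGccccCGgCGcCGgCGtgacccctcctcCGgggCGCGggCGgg
Fgf18: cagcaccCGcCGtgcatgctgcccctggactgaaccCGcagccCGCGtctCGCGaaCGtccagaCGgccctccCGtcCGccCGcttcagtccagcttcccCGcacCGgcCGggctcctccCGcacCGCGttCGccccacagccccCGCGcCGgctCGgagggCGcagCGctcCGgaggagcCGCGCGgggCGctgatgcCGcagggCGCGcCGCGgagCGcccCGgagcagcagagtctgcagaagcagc
These stretches hold 34 CpG in 250 bases, 32 in 169 and 37 in 250. Over windows of 300 bases (250 before the start to 50 after), the 3 promoters held 42, 58 and 47 CpG, against a median of 23.5 over the 36 ligand promoters in the table and 13 over 21045 promoters of protein-coding genes. Promoters of all genes with an end at an anchor had a median of 15.

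CpG-rich starts were common among the ligands at large: 29 of 36 promoters, of 33 genes, had 10 or more CpG in 300 bases (80.6%), against 57.3% of all promoters. The lowest counts were those of Bmp5 and of a start of Wnt5b, with 4 each, and of Nodal, with 5. The highest after Wnt9a was that of Wnt4, with 51. The TATA box letters TATAAA, on either strand, were found in 3 ligand promoters, those of Wnt11, Fgf5 and Fgf21 (8.33%, against 12.7% of all promoters), and in none of the 4 from genes with an end at an anchor (Wnt7a, Wnt9a, Fgf18 and Ihh). The table has no entry for Wnt5a, Wnt7b, Wnt8a, Wnt10a, Fgf1, Fgf8, Fgf15, Fgf17, Fgf20, Bmp2, Bmp3, Bmp7 and Shh.

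Shh, which patterns the neural tube and the limb, had loops to both sides, unlike the other 8 genes at anchors, and the longest of the 13 loops with a ligand gene end. Its record (chromosome 5, 28456840 to 28467101) lay in an anchor of 25 kb that was joined over 825 kb, toward higher coordinates, to an interval (29275001 to 29300000) inside Lmbr1. Lmbr1 is the gene whose intron is known to hold the ZRS, the enhancer of Shh in the limb. The anchor lies in the body of Lmbr1, at neither of its ends, and whether it holds the ZRS was not determined. The peak score of this loop, the authors' unitless measure of how a loop stands out, was 5.59, at percentile 90.3 of loops of 25 kb pixels, the pixel being the bin size of the contact map at which a loop was called. The value of its peak pixel stood at percentile 99.3 of that pixel size. Of the genes between the anchors, only Rnf32 lay wholly within. A loop of 300 kb ran the other way, from an anchor of 10 kb with the high end of Shh to the end of En2 held by another anchor, with a peak score of 5.73. En2 is a homeobox gene of the midbrain and hindbrain. Another loop in Lmbr1, of 210 kb, did not reach Shh.

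Ihh, which controls the growth of cartilage, had the shortest loop of all 13 loops with a ligand gene end. It spanned 70 kb, from an anchor (74945001 to 74950000 on chromosome 1) to an interval (75015001 to 75020000) in the body of Nhej1, a gene known to carry enhancers of Ihh in its introns. The peak score was 4.32, at percentile 32.9 of loops of 5 kb pixels, and the peak pixel was among the weakest of that size, at percentile 2.06. The anchor holds the low end of the record (74945315 to 74951672). Since Ihh lies on the minus strand, that end is the 3′ end, and the transcription start was outside the anchor. Ihh was also enclosed by 2 loops from a shared anchor with ends of Fev and Cryba2 (74875001 to 74900000), of 525 kb (3.57) and 3325 kb (5.01). The longer of them also enclosed Epha4 and Pax3. Wnt6 and Wnt10a, 6.70 kb apart and on the other side of that anchor, had no loop: the anchor lay 89.7 and 70.8 kb from them and its loops ran away from them.

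Fgf8, a signal of limb buds and of the midbrain-hindbrain border, lay across 2 adjoining anchors on chromosome 19 (record 45736491 to 45742941). The anchor with its high end, which also holds an end of Npm3, had a partner 170 kb away with ends of Fbxw4 and Dpcd (45570001 to 45580000; peak score 4.46). Fbxw4 is known to hold limb enhancers of Fgf8. The partner of the anchor with its low end lay 500 kb away and held an end of Lbx1, a homeobox gene of muscle precursors and spinal cord neurons (45230001 to 45240000; 4.04), with Btrc, Poll, Dpcd and Fbxw4 between them. Both loops ran toward lower coordinates. Their peak scores stood at percentiles 68.6 and 52.2 of loops of 10 kb pixels.

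The cluster of Fgf3, Fgf4 and Fgf15 on chromosome 7 was framed by nested loops. Fgf4, which embryonic stem cells are known to secrete, and Fgf3, a signal of the inner ear, lay together in a loop of 95 kb (anchors 144795001 to 144800000 and 144890001 to 144895000; peak score 5.40) that held no other gene. Fgf15, a gut hormone that restrains bile acid synthesis, began 1.53 kb beyond it. The high end of Fgf15 lay in an anchor (144900001 to 144905000) joined over 315 kb to an end of the chloride channel gene Ano1 (5.81), and this larger loop again enclosed Fgf3 and Fgf4. Ccnd1, a cell cycle gene 29.0 kb beyond Fgf15, was the anchor of loops of 200 and 305 kb (3.56 and 6.38), both running away from the Fgf genes. No loop joined or enclosed Ccnd1 together with any of the 3 Fgf genes.

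**Figure D2:**
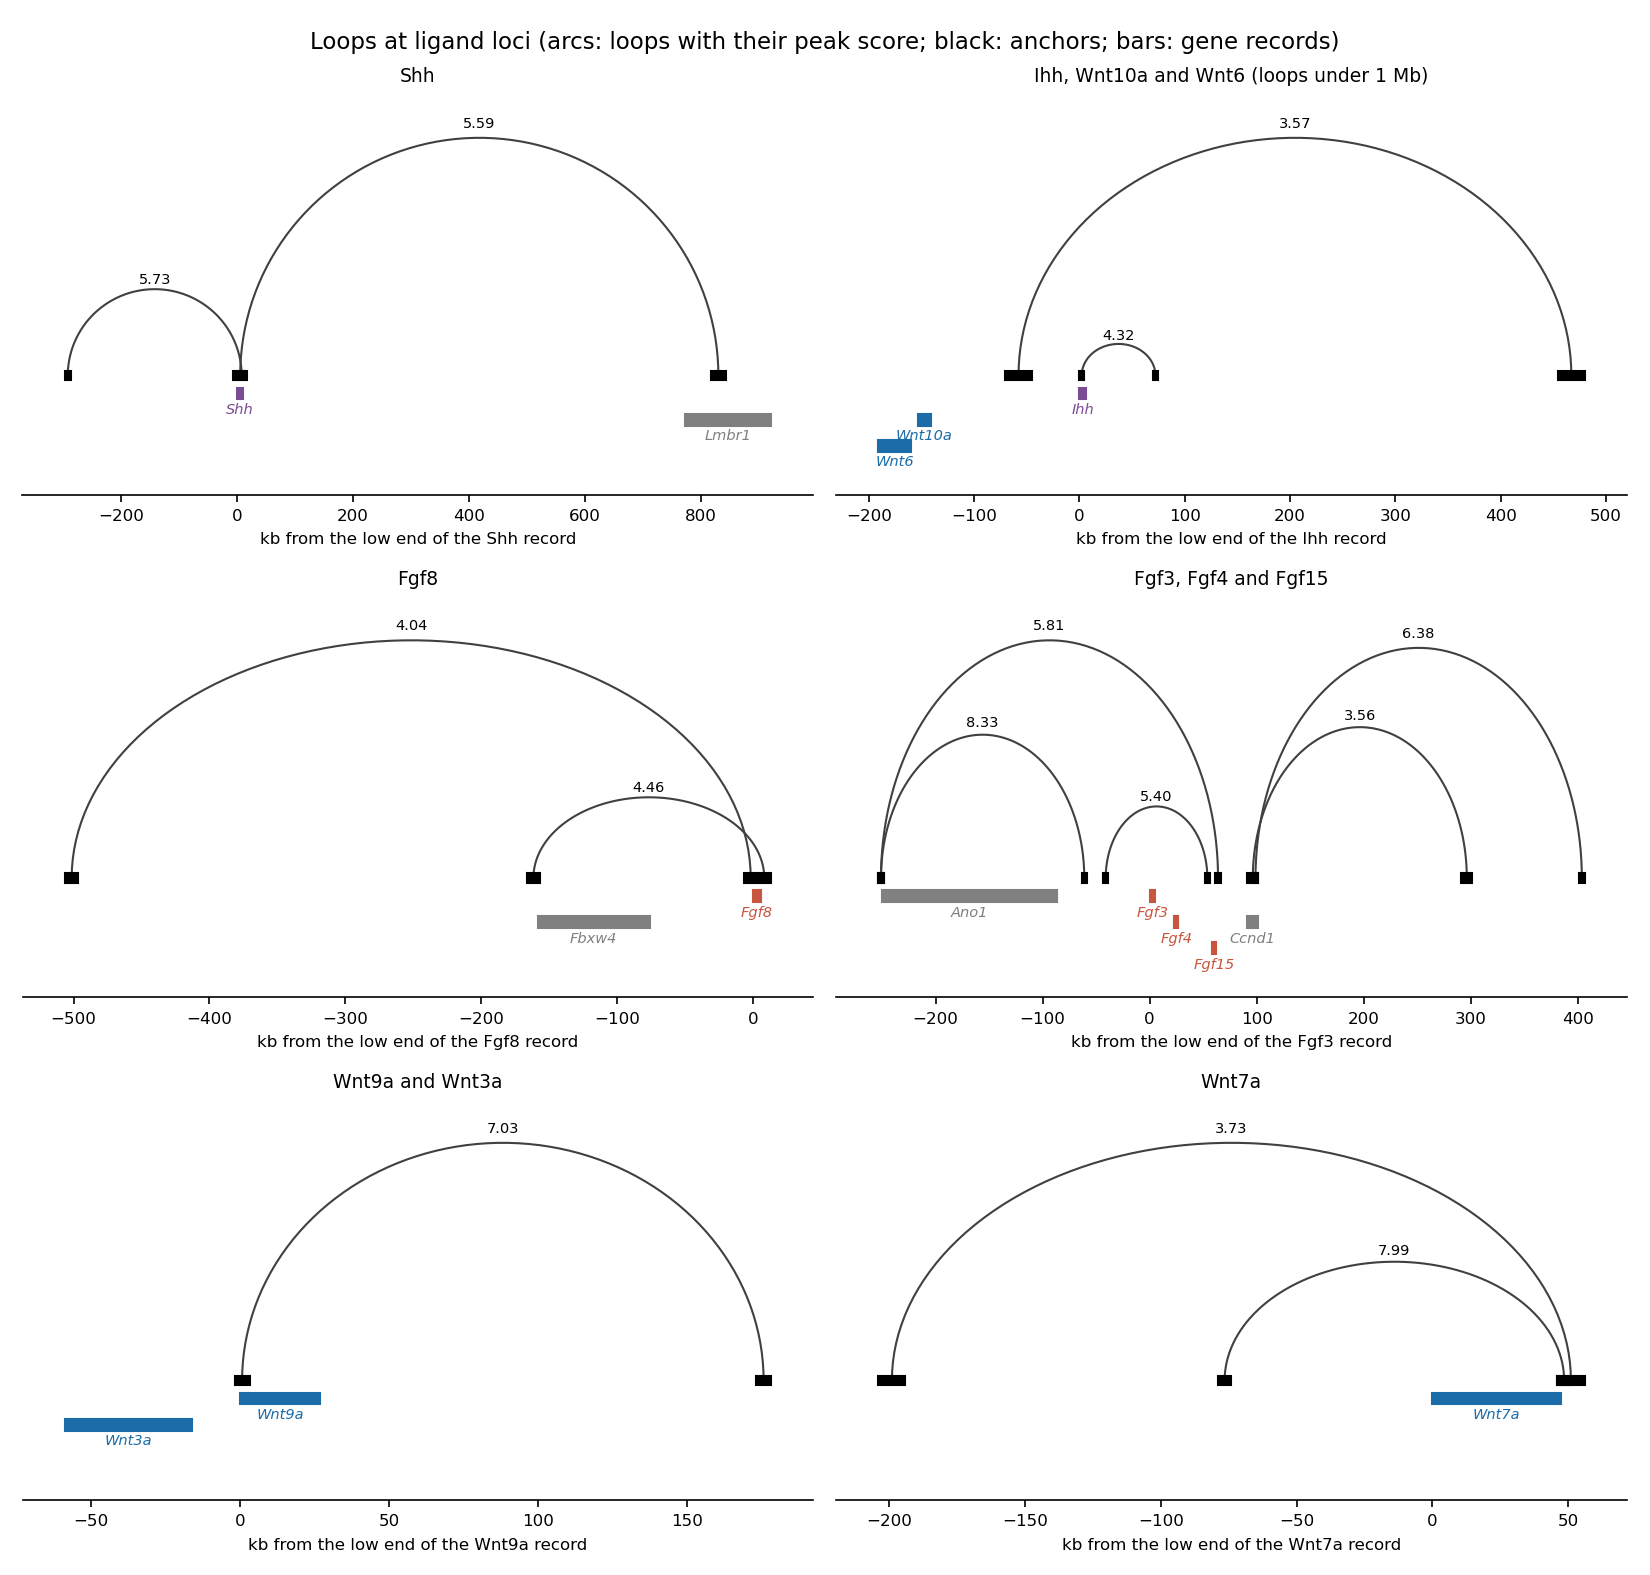
Loops at 6 ligand loci, in kb from the low end of the record named on each axis. Arcs are loops with their peak scores, black boxes anchors and coloured bars gene records; loops ran to both sides of Shh, to 1 side of Fgf8 and Wnt7a, and away from each other at Fgf15 and Ccnd1.

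Of the Wnt genes at anchors, Wnt7a, which marks the dorsal side of the limb, had the highest peak score of the 13 loops with a ligand gene end. Its start (chromosome 6, record 91363981 to 91411353, minus strand) was joined over 125 kb to an interval with no gene (7.99, percentile 95.2 of 5 kb pixels) and over 250 kb to an interval in the body of Hdac11 (3.73). Wnt9a, which acts in joint formation, had a loop of 175 kb from its start (chromosome 11, record 59306849 to 59333552) to an interval with no gene (7.03, percentile 90.3). Prss38, Snap47, Jmjd4 and Zfp867 lay between. Wnt7b, a signal of lung and kidney, had a loop of 270 kb (record 85535437 to 85581821 on chromosome 15; 5.33) over Atxn10 and 7530416G11Rik to an interval with no gene. Wnt5a, a Wnt of body axis elongation that acts largely without beta-catenin, had a loop of 700 kb (record 28504543 to 28527448 on chromosome 14; 5.01) into the body of Erc2. It was enclosed by 3 more loops, of 1120, 1150 and 1280 kb, each running from Erc2 to Cacna2d3 with Lrtm1 as the further gene wholly inside.

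Fgf18, a signal of cartilage and bone, had 2 loops from an anchor of 10 kb with its start (record 33116970 to 33147400 on chromosome 11), of 190 kb (3.81) and 390 kb (3.54), both to intervals with no gene. Their raw peak scores were among the 3 lowest of the 13, across pixel sizes. Within loops of 10 kb pixels they stood at percentiles 41.7 and 27.4. In all 5 loops from a known start, at Wnt7a, Wnt9a and Fgf18, the far anchor lay downstream, so that the loop ran over the gene itself. These are only 3 genes. The same share over all loops from a start was not computed, so whether this direction is unusual is not shown. Among loops of genes with a known strand, only the Ihh loop, from the 3′ end, ran upstream. It too ran over the gene, across the part outside the anchor. For the other 7 loops the strand is not in the table.

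The 13 loops differed little in size from the rest of the list. Their median span was 270 kb (exact 95% interval 170 to 500 kb, range 70 to 825 kb) and that of all loops 325 kb. Of the 13, 5 were of 5 kb pixels (38.5%, against 25.4% of all loops), 7 of 10 kb (53.8%, against 61.2%) and 1 of 25 kb (7.69%, against 13.4%). Peak scores were above the median of their own pixel size in 9 of 13, with a median percentile of 68.6 (37.5 to 90.3), an interval that holds the middle of the list. At the far anchor, 4 of 13 loops had an end of another protein-coding gene, namely En2, Ano1, Lbx1, and Dpcd with Fbxw4. Another 4 ended in the body of a gene (Erc2, Hdac11, Lmbr1 and Nhej1) and 5 in intervals that no protein-coding gene overlapped. The same shares over all loops were not computed, so these counts do not show whether such far anchors are unusual. No loop joined ends of 2 ligand genes.

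No Bmp gene had an end at an anchor, but the ends of 4 lay within 10 kb of one, as the plot of distances by gene shows. Bmp2, which acts in heart and bone, ended 2.16 kb from the nearest anchor, Bmp5, a signal of ear and skeleton, 5.37 kb, Bmp3, an inhibitor of bone formation, 5.59 kb from an anchor that lies within its own body, and Bmp7, of kidney and eye, 9.68 kb. Within 10 kb of an anchor were thus 4 of 7 genes of this group (57.1%, 18.4 to 90.1%), and 15 of 46 ligands (32.6%, 19.5 to 48.0%), against 21.9% of all genes. Within 5 kb were 11 of 46 (23.9%) against 16.2%. The additions within 10 kb were those 4 genes, Wnt4 at 0.5 kb and Wnt3 at 9.18 kb. The 3 remaining members of the Bmp and Nodal group lay farther out, of which Nodal and Bmp6 were within the quartiles of all genes and Bmp4 was beyond them. Nodal, which patterns the early embryo and is known from embryonic stem cells, lay at 83.0 kb, Bmp6, which controls iron through the liver, at 105.7 kb, and Bmp4, a mesoderm signal also known from them, at 319.3 kb.

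**Figure D3:**
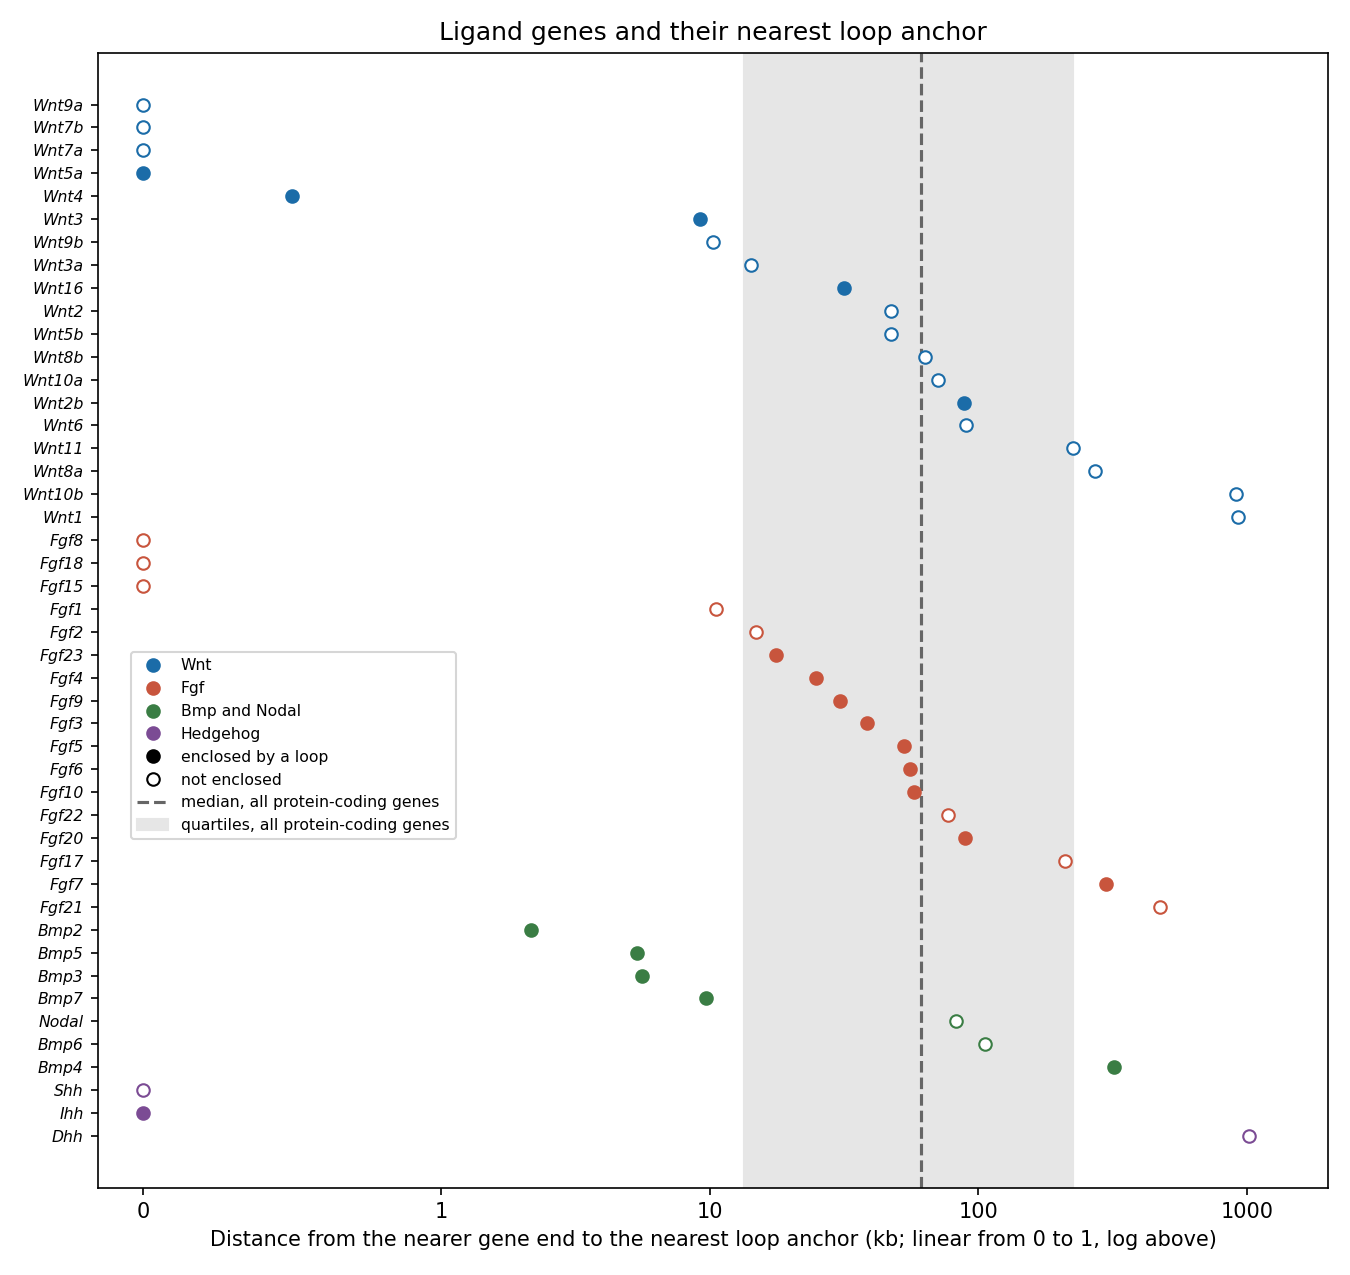
Distance (kb) from the nearer gene end to the nearest loop anchor for each of the 46 ligand genes, by family; filled points are genes enclosed by a loop, the dashed line and grey band the median and quartiles of all protein-coding genes. The 9 genes at 0 have an end in an anchor, Wnt4, Wnt3 and 4 Bmp genes lie between 0.5 and 9.68 kb, and Dhh, Wnt1 and Wnt10b lie farthest out, between 910.7 and 1021.6 kb.

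Over all ligands the median distance to the nearest anchor was 35.0 kb (exact 95% interval 10.3 to 70.8 kb), against 61.4 kb over all protein-coding genes, whose quartiles were 13.4 and 224.6 kb. Family medians were 47.2 kb for Wnt, 38.6 kb for Fgf, 9.68 kb for Bmp and Nodal and 0 for Hedgehog, with wide and overlapping ranges. The direction of the difference in medians turned with gene density when neighbours were counted within 100 kb, which was not tested. Ligands with 5 or fewer such neighbours had a median of 16.3 kb against 42.7 kb over all such genes. Those with 6 or more, Dhh, Wnt1 and Wnt10b among them, had 241.8 kb against 106.7 kb. This median rests on 10 genes that ranged from 14.25 to 1021.6 kb, to both sides of the background median. The division at 6 was singled out after the values were seen. With neighbours counted within 500 kb the direction did not turn. The 10 ligands in the densest bin of 5 then had a median of 83.4 kb against 156.2 kb. More than 200 kb from any anchor were 9 of 46 ligands (19.6%) against 27.1% of all genes. The 5 farthest were Dhh, a Hedgehog of testis and nerve sheaths, at 1021.6 kb, its neighbours Wnt1, a midbrain signal, at 929.9 kb and Wnt10b, which acts in bone and fat, at 910.7 kb, the metabolic hormone Fgf21 at 474.5 kb, and Bmp4. The first 3 share a stretch of chromosome 15 without any anchor, 2160 kb long, and no loop enclosed them. These 3 genes are 1 locus and not 3 separate cases. Bmp4, by contrast, lay near the middle of a loop.

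Several enclosed ligand genes shared their loop with no other whole gene. In the smallest enclosing loop, 8 of 20 enclosed ligands were the only protein-coding gene that lay wholly inside (40%, 19.1 to 63.9%), against 17.4% of the 7058 enclosed genes. The 8 were Wnt3, Fgf5, Fgf9, Fgf10, Bmp2, Bmp4, Bmp5 and Bmp7. Other genes reached in partly, through an anchor, at 3 of them: Wnt9b and Nsf at Wnt3, Cfap299 at Fgf5 and Hmgcll1 at Bmp5. With such genes counted, 5 of 20 ligands had no other gene in the loop (25%, 8.66 to 49.1%), against 7.68% of enclosed genes. Among genes with at most 4 neighbours within 100 kb the shares with no other whole gene were 8 of 17 (47.1%, 23.0 to 72.2%) and 26.5%, an interval that includes the background. The median number of other genes wholly inside the loop was 1 (0 to 1) for ligands and 3 for all enclosed genes. The loops were of ordinary size, with a median span of 365 kb (150 to 700 kb) against 375 kb.

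Bmp4 lay alone in a loop of 720 kb (chromosome 14, anchors 45990001 to 46000000 and 46710001 to 46720000; peak score 4.21), with 383.5 and 319.3 kb of DNA without another protein-coding gene between it and the anchors. Bmp2 lay alone at the low edge of a loop of 950 kb (3.98), 12.2 kb from that anchor and 917.1 kb from the other, and in a second of 1400 kb (3.91). Bmp5 lay at the low edge of a loop of 360 kb (3.41), which Hmgcll1 entered in part, with loops of 490 and 1675 kb around it. Bmp7 filled most of a loop of 115 kb (3.58), and a loop of 260 kb (3.98) reached from 28.0 kb below Bmp7 to an end of Ctcfl, the testis relative of CTCF. Bmp3 was enclosed only by the longest of these loops, of 3600 kb, which held 16 other genes, Fgf5 among them. Nodal and Bmp6 were in none.

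Among Fgf genes, Fgf10, which starts limb and lung buds, lay alone in a loop of 700 kb (3.19) and in one of 945 kb (4.53) whose high anchor lay in Nnt. Fgf9, of lung and gonad, lay alone in loops of 670 and 1090 kb (3.86 and 3.30), 30.7 kb from the low anchor of the smaller. Fgf5, which limits hair length, lay in a loop of 140 kb (4.12) with no other whole gene. Fgf6, of muscle, and Fgf23, the phosphate hormone, are neighbours 48.2 kb apart and shared a loop of 150 kb (4.45) with no other whole gene, although D6Wsu163e and Tigar reached in partly. Fgf20 shared one of 230 kb (3.30) with Micu3, and Fgf7, a growth factor of epithelium, one of 880 kb (3.72) with 7 other genes.

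Neighbouring Wnt genes differed in their place relative to loops. Wnt3, needed for the primitive streak, and Wnt9b, of the kidney, have overlapping records on chromosome 11, and a loop of 150 kb with a peak score of 6.92 enclosed Wnt3 whole and Wnt9b in part. Its low anchor (103760001 to 103765000) lay in the body of Wnt9b, whose high end fell inside the loop, and its high anchor lay in Nsf. Wnt3a, a signal of the tail bud, points away from Wnt9a with 16.1 kb between them; the anchor at the start of Wnt9a lay 14.3 kb from Wnt3a, and its loop ran over Wnt9a and away from Wnt3a. Wnt16 lay with Fam3c in a loop of 370 kb with the highest peak score of any enclosing loop listed here (8.43, percentile 98.7 of 10 kb pixels). Wnt2b lay in a loop of 290 kb (4.55) with 5 other genes, and Wnt4, of kidney and ovary, at the edge of a loop of 420 kb (3.34) with 3. Of the other neighbouring pairs, Fgf3 with Fgf4 and Fgf6 with Fgf23 were enclosed together.

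**Figure D4:**
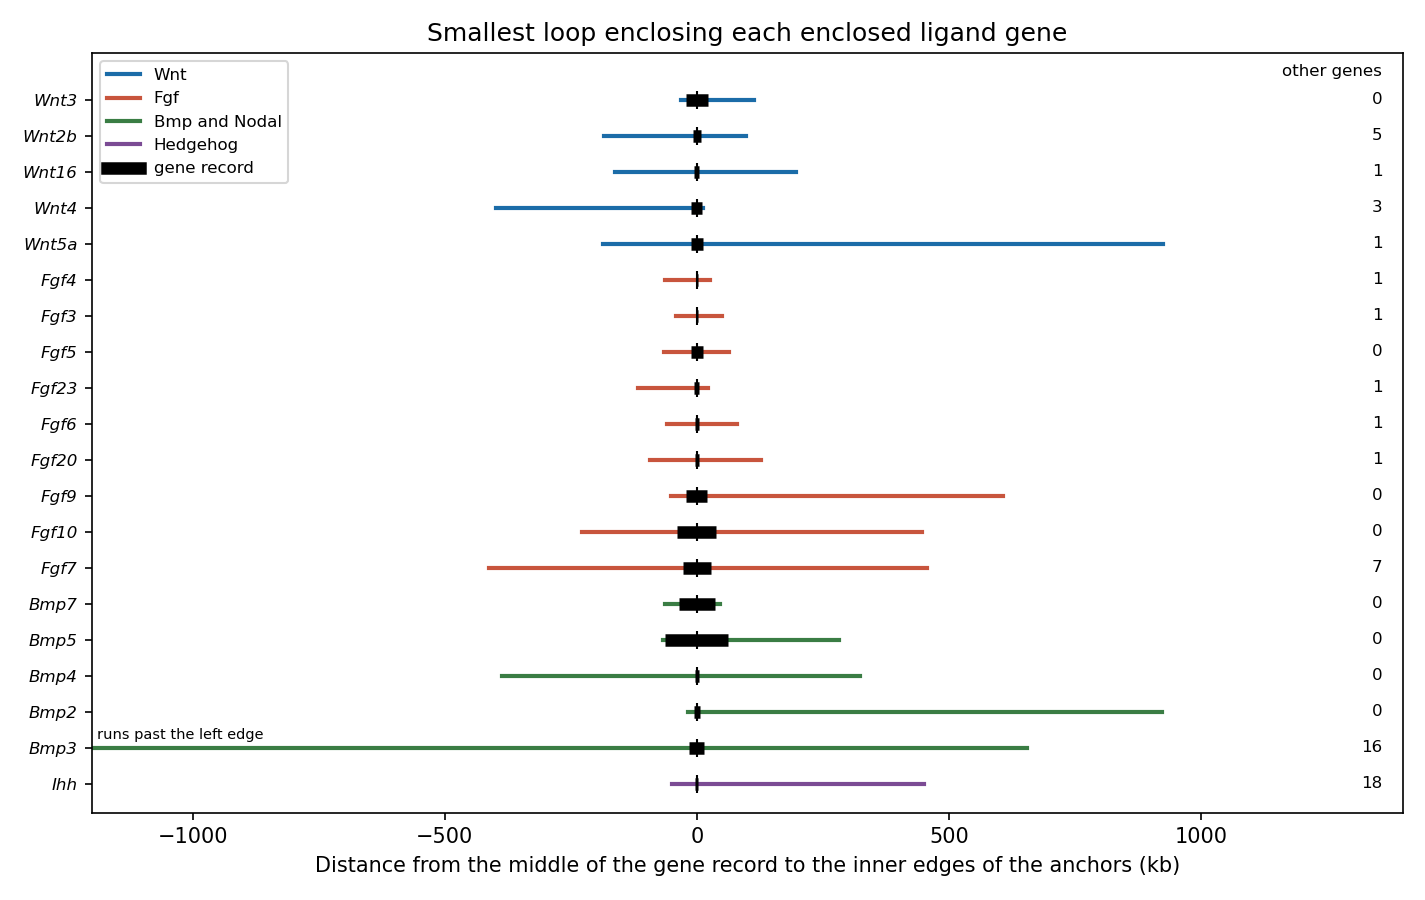
The smallest loop enclosing each of the 20 enclosed ligand genes, drawn from the middle of the gene record (0) to the inner edges of both anchors in kb, with the number of other protein-coding genes wholly inside at the right. Black bars are gene records; 8 genes have no other whole gene in their loop, and the loop of Bmp3, of 3600 kb, runs past the left edge.

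With neither an end at an anchor nor the whole record enclosed were 19 ligands: Wnt1, Wnt2, Wnt3a, Wnt5b, Wnt6, Wnt8a, Wnt8b, Wnt9b, Wnt10a, Wnt10b, Wnt11, Fgf1, Fgf2, Fgf17, Fgf21, Fgf22, Bmp6, Nodal and Dhh. An anchor lay in the body of 3 of them, Wnt5b, Wnt9b and Fgf1. By gene density, 10 of the 19 had 6 or more protein-coding genes within 100 kb and 9 had 5 or fewer. Of all protein-coding genes, in loops or not, 8412 had 6 or more and 13219 had 5 or fewer. The same split over all genes neither at an anchor nor enclosed was not computed, so it is not shown whether the ligands' split is unusual. Of the 10 ligands with 6 or more protein-coding genes within 100 kb, none was at an anchor or enclosed, against 29.4% of all genes in such surroundings. The interval of 0 of 10 reaches 30.8% and so includes that background. They were Wnt1, Wnt3a, Wnt6, Wnt8a, Wnt10a, Wnt10b, Fgf17, Fgf21, Fgf22 and Dhh, and 5 of them belong to 2 groups of neighbours. Of the 36 ligands with 5 or fewer such neighbours, 27 were at an anchor or enclosed (75%, 57.8 to 87.9%), against 44.3% of all genes. The division at 6 is a bin edge and was singled out after the values were seen, and the 0 rests on the window. With neighbours counted within 500 kb, 2 of the 10 ligands in the densest bin of 5, Wnt9a and Ihh, had an end at an anchor, and these were the 2 at an anchor or enclosed (20%, 2.52 to 55.6%), against 30% of all genes in that bin. Enclosed by 2 or more loops were 10 ligands (21.7%, 10.9 to 36.4%), against 11.9% of all genes, with Wnt5a and Bmp5 in 3 loops each.

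The receptors, inhibitors and transcription factors of the same pathways were set beside the ligands. Of 70 such genes, 11 had an end at an anchor (15.7%, 8.11 to 26.4%) and 39 were enclosed (55.7%, 43.3 to 67.6%), against 9.04% and 32.6% of all genes. The ligands' intervals overlapped both. Of 15 Wnt receptors and co-receptors 4 had an end at an anchor: Fzd4 (a loop of 250 kb, peak score 4.65), Fzd6 (100 kb, 3.37), Fzd8 (560 kb, 3.75) and Ror2 (250 kb, 5.04), a receptor of Wnt5a. Of the 6 Hedgehog receptors and co-receptors, Gas1 (300 kb, 3.86) and Boc, with 3 loops, were at anchors. Fgfr1 (305 kb, 4.79) was the only 1 of 6 Fgf receptors and co-receptors at an anchor, and Acvr1 (530 kb, 4.27) the only 1 of 7 Bmp or Nodal receptors. Of 19 antagonists, Nog, which traps Bmp proteins, had a loop of 220 kb (5.94), and Sfrp2, which traps Wnt proteins, one of 480 kb (3.63). None of the 5 Fgf and Hedgehog feedback inhibitors had an end at an anchor, but all 5, Spry1, Spry2, Spry4, Dusp6 and Hhip, were enclosed. Of 12 transcription factors only Lef1, which carries out Wnt signals, had an end at an anchor.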

How the data were processed

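Micro-C of 2 samples of the group siControl was represented by 1 loop list. Per the submitters' processing notes, Juicer 1.5.6 was among the tools and mm10 the build. Which program called the loops, at which thresholds and whether on pooled samples is not given in the sources used here. No header names the columns. The peak score and regional peak score are the authors' deposited scores, identified by column order, and rank loops only within this list. A deposited fraction, 0.964 or higher, was not used. The deposited signal is the value of the peak pixel, with a normalization of the contact map that is not stated.

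Anchors were made 1-based, and a gene end was at an anchor when it lay inside it. Span is the distance between anchor midpoints. Genes came from the RefSeq table of GRCm38.p6, and strand and starts from its promoter table (33 of 46 ligands and 17274 of 21631 genes matched). The background was the share of all protein-coding genes, also weighted over 5 bins of gene density. Medians carry exact order-statistic intervals. No p-value was computed, since genes are not replicates. Members and lists were chosen with earlier results of these data known. Every ligand with an end at an anchor was named with its loops, as were neighbours within 100 kb, the 5 farthest members and those in no loop. Partners looked for by name were Lmbr1, Fbxw4, Epha4, Pax3, Ano1 and Ccnd1. The assignment of genes to loops was tested on simulated data. Python 3.11.15, pandas 2.3.3, NumPy 2.4.6 and SciPy 1.17.1 were used.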

Additional observations from a re-analysis of the deposited data

How the results depend on the processing

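No paired analysis was possible because both samples share 1 loop list, which also leaves no replicate to leave out. Of 23 alternative values, 20 stayed within the 95% interval of the ligands' main value and 3 did not. The 20 include the density-weighted backgrounds with neighbours within 500 kb, which are not ligand values. They were 9.79% for an end at an anchor and 34.4% for enclosure, both inside the ligands' intervals for those shares. The share of ligands with a start at an anchor, over the 33 genes with a known start, was 9.09% (3 genes, against 5.2% of all genes with a start), below the 19.6% for either gene end; this counts 1 end of fewer genes, and the cause was not tested further. With loops of 5 kb pixels alone, the enclosed share was 10.9% (against 7.42% of all genes) and the median distance to an anchor 312.8 kb (against 448.2 kb); fewer loops enter both. The share at an anchor lay above that of all genes in 7 of 7 alternatives with a background, and the enclosed share in 5 of 5. These alternatives overlap, since all draw on the same ligand genes and the same loop list. Their common direction is therefore not repeated independent support. Counts are small: 5 ligands had an end at an anchor with 5 kb pixels alone (10.9%, against 1.86% of all genes) and 5 with 10 kb pixels alone (10.9%, against 5.59%). The alternatives on 10 kb pixels, on ends within 10 kb of an anchor, on genes partly inside a loop and on the densest bin within 500 kb were chosen after seeing the data.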
